A study of Homo sapiens with 12 samples.

Results

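The mRNAs of the minichromosome maintenance (MCM) proteins were followed in RNA bound to single ribosomes of HEK293 cells. The group held 7 genes of the 57820 Ensembl gene identifiers counted, chosen by identifier: MCM2 (ENSG00000073111), MCM3 (ENSG00000112118), MCM4 (ENSG00000104738), MCM5 (ENSG00000100297), MCM6 (ENSG00000076003), MCM7 (ENSG00000166508) and MCM10 (ENSG00000065328). All 7 were counted in every library, with 279 reads or more, and all passed the filter on low counts.

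HEK293 is an established human embryonic kidney line. The 3 stable Flp-In T-Rex derivatives overexpressed FLAG/HA-tagged RPL12, a protein of the large ribosomal subunit also named uL11, as S38A (serine to alanine, which cannot be phosphorylated), as S38D (serine to aspartate, a mimic of the phosphorylated residue) or as wild type (WT). Per the labels, each line grew out of monoclonal colonies after hygromycin selection, so form and clone cannot be told apart. Pooled 80S fractions of sucrose gradients were split into an anti-FLAG immunoprecipitate (IP) and an input aliquot, both kept in cycloheximide. The design held 6 groups of 2 libraries: S38A IP and input, S38D IP and input, WT IP and input. Same-numbered IP and input libraries of a line came from 1 fraction. No library came from an IP of cells without tagged RPL12. RNA that bound without the tag therefore cannot be told apart from RNA recovered through RPL12.

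The MCM2 to MCM7 proteins form the ring-shaped replicative helicase. In G1 the origin recognition complex, CDC6 and CDT1 load the ring onto replication origins as an inactive double hexamer, which is origin licensing. In S phase, kinases and the cofactors CDC45 and GINS turn it into the helicase that unwinds DNA ahead of the polymerases. MCM10 shares the name but is not a subunit of the ring. It acts at the activation of the helicase and at its link to DNA polymerase alpha. Transcription of these genes is driven by E2F factors at the passage into S phase.

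The IP libraries held 3186164 to 7430881 gene counts and the inputs 7434431 to 8723130. Spike-in RNA took 1.44% to 5.43% of the counts in IP libraries and 0.116% to 0.484% in inputs. Log2 CPM (counts scaled to a common library total) of replicates had correlations of 0.957 to 0.979 over genes, which are not independent, with the lowest in WT IP. The first WT IP library had the fewest counts and stood apart from the other IP libraries for several MCM mRNAs, as shown with each of them. Whether replicates were separate cultures is not in the labels, so the p-values reflect only library-to-library spread, possibly technical.

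Some of the genes share features of their promoters that the choice of members did not use. RefSeq promoters (250 bases before to 50 after the start site, GRCh38.p14) were at hand for 5 of the 7 members and are shown for the genes in which an E2F-type motif was found. Capitals mark matches, on either strand, to TTTCCCGC, TTTCGCGC, TTTGCCGC or TTTGGCGC.
MCM7, chr7:100101348-100101647, minus strand: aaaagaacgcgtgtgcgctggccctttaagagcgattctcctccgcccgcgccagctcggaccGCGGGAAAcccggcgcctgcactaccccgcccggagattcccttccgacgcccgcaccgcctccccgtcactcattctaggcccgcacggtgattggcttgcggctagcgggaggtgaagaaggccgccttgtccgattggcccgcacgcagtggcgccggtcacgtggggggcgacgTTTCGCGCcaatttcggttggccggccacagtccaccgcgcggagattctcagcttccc
MCM3, chr6:52284693-52284992, minus strand: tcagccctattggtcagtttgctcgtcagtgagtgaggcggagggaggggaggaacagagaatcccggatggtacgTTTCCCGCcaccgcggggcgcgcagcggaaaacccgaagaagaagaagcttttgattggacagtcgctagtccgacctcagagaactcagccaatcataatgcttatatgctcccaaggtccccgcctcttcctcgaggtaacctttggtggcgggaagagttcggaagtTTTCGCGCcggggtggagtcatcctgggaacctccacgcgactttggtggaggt
MCM2, chr3:127598161-127598460, plus strand: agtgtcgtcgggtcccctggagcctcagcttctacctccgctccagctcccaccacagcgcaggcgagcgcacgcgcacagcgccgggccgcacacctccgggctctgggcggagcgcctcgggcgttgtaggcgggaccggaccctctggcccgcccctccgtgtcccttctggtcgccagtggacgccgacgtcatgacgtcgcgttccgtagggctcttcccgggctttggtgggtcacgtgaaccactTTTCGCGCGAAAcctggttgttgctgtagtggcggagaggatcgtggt
MCM6, chr2:135876394-135876693, minus strand: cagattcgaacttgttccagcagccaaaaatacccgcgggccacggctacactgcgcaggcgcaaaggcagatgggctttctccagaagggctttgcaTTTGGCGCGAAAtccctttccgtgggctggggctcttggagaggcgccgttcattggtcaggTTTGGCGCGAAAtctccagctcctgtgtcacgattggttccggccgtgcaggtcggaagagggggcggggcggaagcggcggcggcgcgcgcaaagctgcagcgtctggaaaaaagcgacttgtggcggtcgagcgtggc

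At least 1 match stood in 4 of these 5 promoters, each the first listed for its gene. Of all 35116 promoters in the table, further ones of a gene included, 3.31% held a match. One MCM7 match began at position -9 from the start site and the other at -187, and those of MCM3 began at -4 and -174. In MCM2 a pair of overlapping matches began at 3 and 7, and MCM6 held 4 matches as 2 overlapping pairs. The MCM10 promoter held none of these letters. The CCAAT motif, searched on both strands, was in 4 of the 5 promoters (MCM3, MCM6, MCM7 and MCM10) and in 34.6% of all. The table held 3 promoters for MCM7, of which the first is shown and the other 2 held no E2F-type match. A match is a run of letters and not a measured binding site. In the RefSeq table the span of MCM7 overlapped AP4M1 and the microRNA genes MIR25, MIR93 and MIR106B. That of MCM2 overlapped 1 uncharacterised locus, and the other 5 overlapped no listed gene. The sources used here do not give how the authors' counter treated overlaps.

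The first comparison asked whether the MCM mRNAs were recovered differently with tagged RPL12 than they stood in the 80S fraction. Levels are CPM with library sizes scaled by trimmed mean of M-values (TMM), so each is a share of the counted RNA. Between lines, fewer cells with an mRNA and less of it per cell cannot be told apart in bulk RNA of this kind. Over the 3 lines, 5 of the 7 MCM mRNAs were higher in IP at an adjusted p under 0.05 by edgeR's quasi-likelihood test and 0 were lower. Among all 16920 genes tested, 15.9% were higher, and among the 4230 most abundant, which held all 7 members, 37.3%. The share by abundance was computed for this comparison only. Shares of all genes given below cover genes of any abundance, and so are not matched to the members. The median log2 change of the 7 was 0.51, against -0.04 for all genes. MCM7 rose most, then MCM3, MCM4, MCM10 and MCM2, while MCM5 and MCM6 did not pass. With TMM the IP was above the input of its own fraction in 6 of 6 fractions for all 7 mRNAs, as for 20.3% of all genes tested. With libraries scaled by total counts this held in 6 of 6 fractions for MCM3, MCM4 and MCM7, in 5 for MCM10, in 4 for MCM2, in 3 for MCM5 and in 2 for MCM6.

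**Figure D1:**
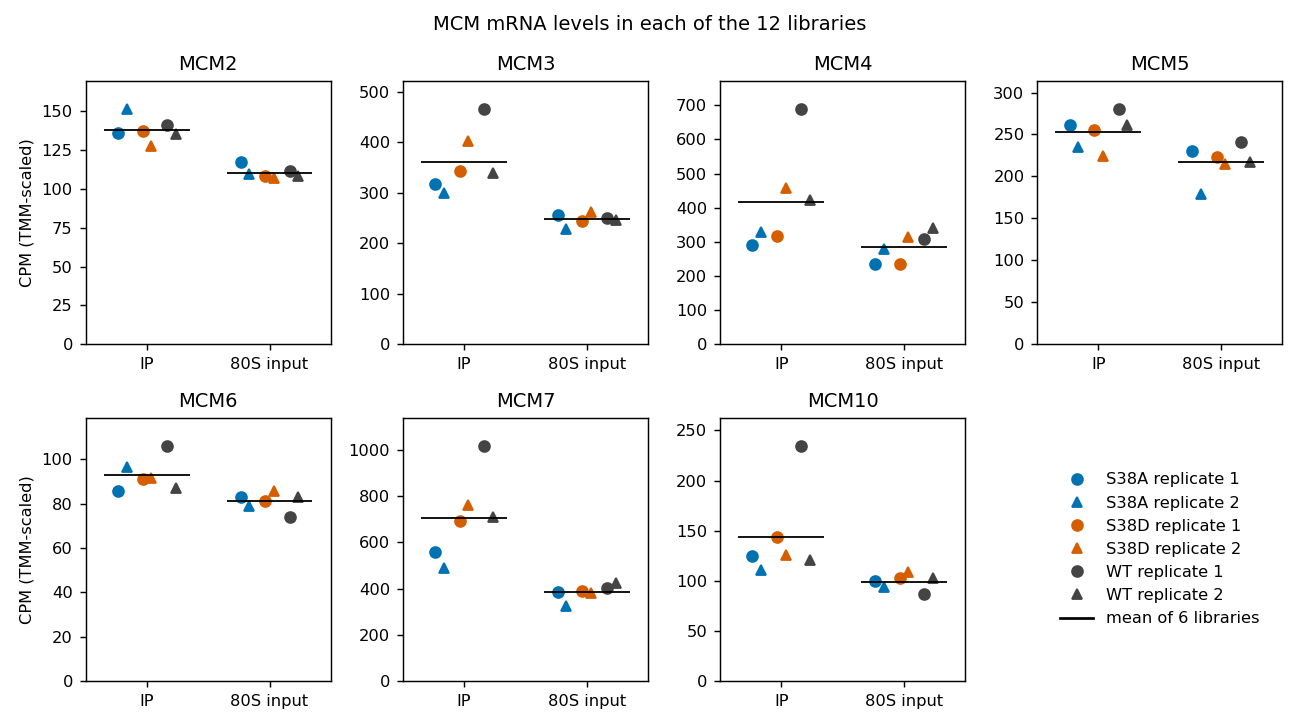
TMM-scaled CPM of each MCM mRNA (y axis, starting at 0) in the 6 IP libraries and the 6 80S input libraries; colours are lines, circles and triangles are replicates 1 and 2, and the bar is the mean of 6. The 6 IP libraries of MCM7 sit between 491 and 1018 CPM, all above the inputs at 325 to 425.

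MCM7 is 1 of the 3 subunits (with MCM4 and MCM6) whose subcomplex unwinds DNA in vitro. It stood at 559 and 491 CPM in S38A IP, 691 and 761 in S38D IP, and 1018 and 709 in WT IP. In the inputs it stood at 384 and 325 CPM in S38A, 390 and 383 in S38D, and 401 and 425 in WT. The lowest IP library, the second of S38A, was thus above the highest input. The increase was 1.80-fold (log2 0.85, SE 0.11, edgeR adjusted p = 0.00032), at the 96.3rd percentile of the changes of all genes. It was 0.74 without the first WT IP library and 0.92 without the second, and passed without either. The overlap with AP4M1 leaves the origin of some of its reads uncertain.

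MCM4, a chief target of the kinase CDC7 at origin firing, stood at 291 and 328 CPM in S38A IP, 317 and 458 in S38D IP, and 688 and 424 in WT IP. In the inputs it stood at 235 and 278 CPM in S38A, 234 and 313 in S38D, and 307 and 339 in WT. The groups overlapped: the S38A IP libraries and the first of S38D lay below the highest input. Each was above the input of its own fraction. With the fraction as a block the log2 change was 0.50 (SE 0.10, edgeR adjusted p = 0.0016). Without the block the fitted increase was 1.43-fold (log2 0.52, SE 0.14, edgeR adjusted p = 0.015). That unblocked change was 0.38 on the log2 scale without the first WT IP library. The call was lost without the second S38D IP library (adjusted p = 0.053).

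MCM6, the remaining member of that subcomplex, had the smallest change. It ranged from 85.7 to 106 CPM in IP libraries (median 91.4) and from 74.0 to 85.8 in inputs (median 82.2). The log2 change was 0.20 (SE 0.09, edgeR adjusted p = 0.11) and did not pass. It passed without the second WT IP library (0.24, adjusted p = 0.038). With the fraction as a block the adjusted p was 0.059.

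Of the subunits MCM2, MCM3 and MCM5, MCM3 moved most. MCM3, which pairs with MCM5 in the ring, stood at 318 and 300.3 CPM in S38A IP, 344 and 404 in S38D IP, and 466 and 338 in WT IP. Its inputs held 257 and 227 CPM in S38A, 244 and 262 in S38D, and 249.6 and 246 in WT. All 6 IP libraries were above all 6 inputs, and the change was 1.45-fold (log2 0.54, SE 0.10, edgeR adjusted p = 0.0020). The first WT IP library was again the highest, and without it the change was 0.44.

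MCM2, which also binds histones H3 and H4 at the fork, was the most even. It ranged from 127 to 151 CPM in IP libraries (median 137) and from 107 to 117 in inputs (median 109). With TMM these ranges did not overlap, and with total counts they did. The coefficient of variation was 5.69% over the IP libraries and 3.36% over the inputs. The increase was 1.25-fold (log2 0.32, SE 0.08, edgeR adjusted p = 0.0087). Its call was lost with no filter on low counts (adjusted p = 0.062).

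MCM5, which forms with MCM2 the gate through which DNA enters the ring, ranged from 224 to 280.1 CPM in IP libraries (median 258) and from 179 to 241 in inputs (median 220.5). The groups overlapped, and the log2 change of 0.22 (SE 0.10, edgeR adjusted p = 0.10) did not pass. With the fraction as a block it was 0.22 and passed (adjusted p = 0.014), which made 6 of 7 called, where 22.5% of all genes were higher.

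MCM10 stood at 125 and 111 CPM in S38A IP, 144 and 125 in S38D IP, and 235 and 120.3 in WT IP. Its inputs held 99.3 and 94.0 CPM in S38A, 103 and 109 in S38D, and 86.9 and 103 in WT. The groups did not overlap with TMM, but the first WT IP library lay far above the other 5. The coefficient of variation over the IP libraries was 32.1%, and 9.60% without that library. The change was 1.42-fold (log2 0.51, SE 0.14, edgeR adjusted p = 0.015). Without that library it was 0.32, and with the second WT IP library left out instead it was 0.65. Over all tested genes, 6.15% had all IP libraries above all inputs with TMM, as MCM2, MCM3, MCM7 and MCM10 had. With total counts MCM2 overlapped (lowest IP 113 CPM, highest input 128), as did MCM10 (110 and 117).

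**Figure D2:**
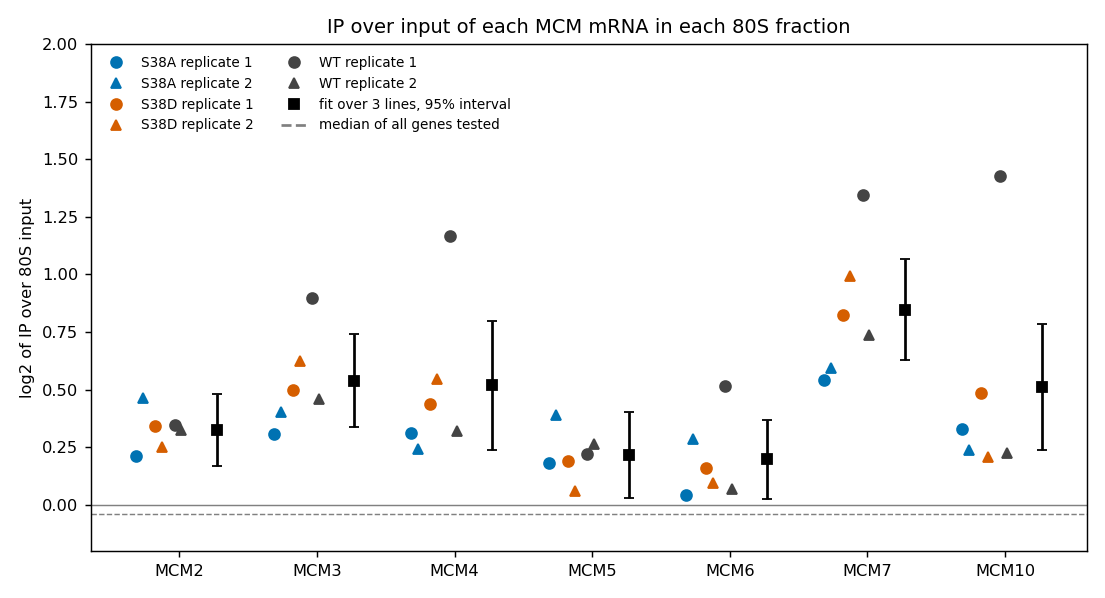
Log2 of IP over 80S input (y axis) for each MCM mRNA in each of the 6 fractions, with the fitted change over the 3 lines and its 95% interval as black squares; the dashed line is the median of all genes tested, -0.04. Values use TMM, with which all points lie above 0; with total counts 4 of 6 fractions fall below 0 for MCM6, 3 for MCM5, 2 for MCM2 and 1 for MCM10. The first WT fraction is the highest point for MCM3, MCM4, MCM7 and MCM10 under both scalings.

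The sign of MCM5 and MCM6, neither called, depended on the scaling. With total counts in place of TMM the median change of all genes was -0.25, and MCM7 (0.63, edgeR adjusted p = 0.00035) and MCM3 (0.32, adjusted p = 0.014) were the members still called. MCM2 (0.11), MCM4 (0.30) and MCM10 (0.29) kept a positive sign and did not pass, and MCM5 (-0.00089) and MCM6 (-0.02) had the opposite sign. With total counts 1298 of all 16920 genes were called higher and 5251 lower. A change of scaling moves all genes by about the same amount, so their order is kept nearly by construction. MCM6 stood at the 70.2nd percentile of changes with TMM and at the 70.1st with total counts. MCM7 stood at the 96.3rd with each. As a share of all gene counts the 7 mRNAs made up 0.175% to 0.242% of IP libraries and 0.144% to 0.159% of inputs. These ranges did not overlap. The sum weighs most on the members with the most reads, MCM7 first, and was not set beside other sets of genes.

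Ratios between the members within a library do not depend on library scaling. MCM7 gained on the other subunits in IP. Its reads were 2.14 and 2.09 times those of MCM5 in S38A IP, 2.71 and 3.40 times in S38D IP, and 3.64 and 2.71 times in WT IP. In the inputs the ratio was 1.67 and 1.81 in S38A, 1.75 and 1.78 in S38D, and 1.66 and 1.95 in WT. The ratio was higher in each IP library than in any input. To MCM6 the ratio was 7.54 ± 1.56 in IP and 4.75 ± 0.47 in inputs (SD, n = 6 each), and to MCM2 it was 5.13 ± 1.39 and 3.49 ± 0.33. The ratio to MCM2, MCM3, MCM4, MCM5 and MCM6 was higher in IP than in its own input in 6 of 6 fractions, and that to MCM10 in 5 of 6. Of the 21 pairs of members, 8 moved one way in all 6 fractions: the 5 between MCM7 and the other ring subunits, MCM3 over MCM5, MCM3 over MCM6, and MCM2 over MCM5. The ratios are described without a test. Many pairs share a member, and the share over pairs of other genes was not computed. Of single genes tested, 20.3% were above and 23.4% below their input in 6 of 6 fractions with TMM.

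**Figure D3:**
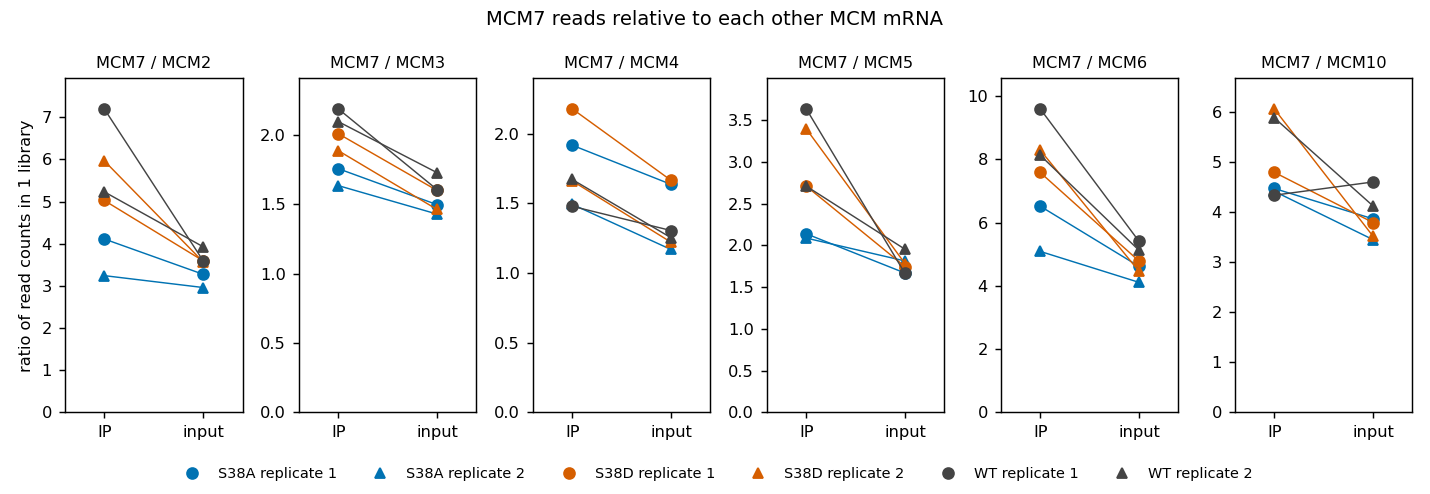
Ratio of MCM7 reads to those of each other MCM mRNA (y axis, starting at 0) in IP and in the 80S input of the same fraction, joined by a line; colours are lines and symbols are replicates. Every line falls toward the input except the first WT fraction for MCM10, and for MCM5 the IP range of 2.09 to 3.64 lies above the input range of 1.66 to 1.95.

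Each line was then taken separately, with the spread estimated over all 12 libraries. In S38A, 0 of 7 MCM mRNAs passed in edgeR or in DESeq2, where 0% of all genes did in edgeR and 2.74% in DESeq2, and 2 had an unadjusted p under 0.05, as did 15.2% of all genes. These were MCM7 (log2 0.57, SE 0.19, adjusted p = 0.22) and MCM2 (0.34, SE 0.14, adjusted p = 0.27). MCM3 changed by 0.35, MCM10 by 0.29 and MCM4 by 0.27. With the fraction as a block MCM7 passed (0.57, edgeR adjusted p = 0.026), where 5.92% of all genes were higher. In S38D, 1 of 7 was higher, MCM7 at 1.88-fold (log2 0.91, SE 0.19, edgeR adjusted p = 0.028), where 3.13% of all genes were. That call was lost when any 1 of the 4 S38D libraries was left out, which leaves 1 library in a group. The log2 change of MCM7 stayed between 0.84 and 0.98. MCM3 changed by 0.56, MCM4 by 0.50, MCM10 by 0.35 and MCM2 by 0.30, none past the threshold. With the fraction as a block MCM3 passed as well (0.56, adjusted p = 0.011), and 10.7% of all genes were higher.

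In WT, 3 of 7 were higher, where 5.77% of all genes were. MCM7 rose 2.09-fold (log2 1.06, SE 0.19, edgeR adjusted p = 0.0095), MCM10 1.86-fold (0.89, SE 0.24, adjusted p = 0.035) and MCM3 1.62-fold (0.70, SE 0.18, adjusted p = 0.029). MCM4 (0.78, SE 0.25, adjusted p = 0.061) and MCM2 (0.33, SE 0.14, adjusted p = 0.14) did not pass. With the fraction as a block MCM4 (adjusted p = 0.0088) and MCM2 (0.048) passed too, and 14% of all genes were higher. The first WT IP library weighed on these values. Without it MCM10 changed by 0.36 (adjusted p = 0.25) and MCM3 by 0.47 (adjusted p = 0.14), and MCM7 stayed called at 0.80. Without either WT input, or with only the 4 WT libraries in the fit, 0 of 7 passed. The share of all genes called there was 1.21% without the first input and 0% in the other two. The changes themselves were of the same size, from 1.02 to 1.104 for MCM7, 0.68 to 0.73 for MCM3 and 0.77 to 1.02 for MCM10. MCM5 had the values 0.28 in S38A, 0.13 in S38D and 0.24 in WT, and MCM6 0.17, 0.13 and 0.29, none of them past the threshold.

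**Figure D4:**
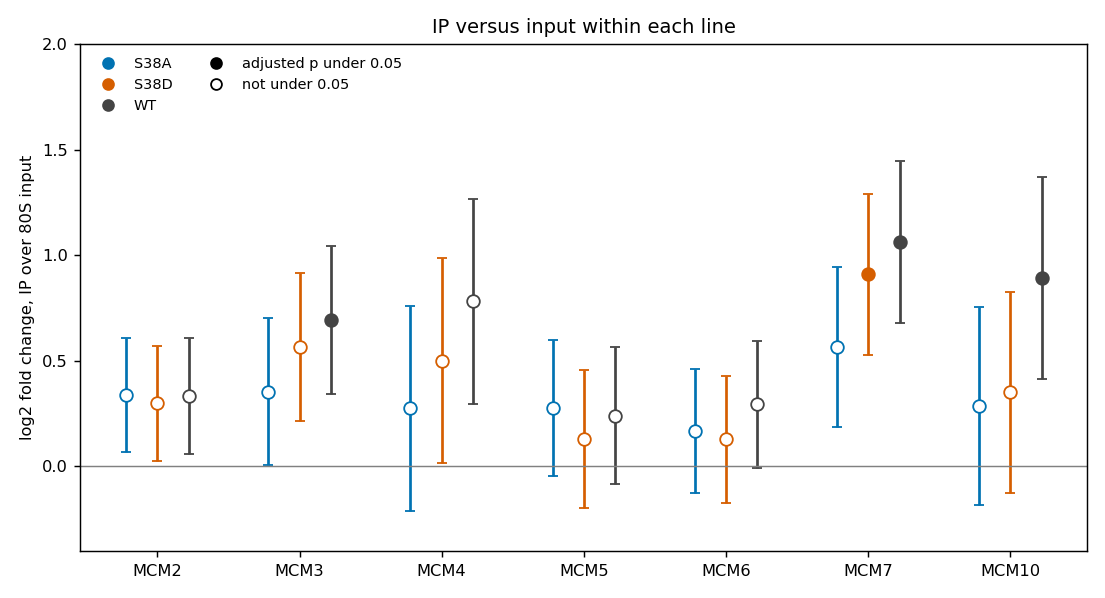
Log2 fold change of IP over 80S input (y axis) of each MCM mRNA in the S38A, S38D and WT lines. The 95% intervals use the normal quantile and are narrower than the tests imply. Filled points had adjusted p under 0.05. The filled points are MCM7 in S38D and WT, and MCM3 and MCM10 in WT, and the intervals of the 3 lines overlap for every mRNA.

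Interaction contrasts tested whether the lines differed in IP over input. For S38A versus WT, S38D versus WT and S38D versus S38A, 0 of 7 MCM mRNAs passed in edgeR, 0 had an unadjusted p under 0.05, and DESeq2 called 0, as edgeR did for 0% of all genes in each contrast. Over all genes 2.32%, 0.792% and 0.644% had an unadjusted p under 0.05, in the same order. The intervals were wide. For S38A versus WT, MCM10 differed by -0.61 (SE 0.34, 95% interval -1.27 to 0.06), MCM4 by -0.51 (-1.19 to 0.18), MCM7 by -0.50 (-1.03 to 0.04) and MCM3 by -0.34 (-0.83 to 0.15), all with edgeR adjusted p = 1. MCM2 (0.01, -0.38 to 0.39), MCM5 (0.04, -0.42 to 0.50) and MCM6 (-0.13, -0.55 to 0.29) lay closer to 0. For S38D versus WT the differences were -0.54 for MCM10 (95% interval -1.21 to 0.13), -0.28 for MCM4, -0.17 for MCM6, -0.15 for MCM7, -0.13 for MCM3, -0.11 for MCM5 and -0.04 for MCM2. For S38D versus S38A they were 0.34 for MCM7 (95% interval -0.19 to 0.88), 0.23 for MCM4, 0.21 for MCM3, 0.07 for MCM10, -0.04 for each of MCM2 and MCM6, and -0.15 for MCM5. These contrasts share libraries with each other.

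The WT values in these contrasts turned on its IP replicates. Without the first WT IP library the S38A versus WT difference was -0.11 for MCM10, -0.17 for MCM4, -0.27 for MCM7 and -0.15 for MCM3. Without the second, which leaves the first as the only WT IP library, it was -1.02 for MCM10, -0.81 for MCM4, -0.73 for MCM7 and -0.55 for MCM3. For S38D versus WT, MCM3, MCM4 and MCM7 had the opposite sign without the first WT IP library (0.07, 0.06 and 0.09). The first WT IP library also had the highest spike-in share (5.43%) of the 12 and the fewest gene counts, and the second S38D IP library came next in both (5.18% and 3695441). The part of depth or spike-in share in these values was not tested.

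The next question was whether the MCM mRNAs of the 80S fractions already differed between the lines before IP. For S38A versus WT, S38D versus WT and S38D versus S38A, 0 of 7 passed in edgeR, 0 had an unadjusted p under 0.05, and DESeq2 called 0. DESeq2 called 2.5%, 0.0598% and 0.012% of all genes in these comparisons. Among all 16728 genes tested there, edgeR called 0%, 0.00598% and 0.00598%, in the same order, and 15.3%, 3.32% and 3.77% had an unadjusted p under 0.05. The largest difference was that of MCM4 in S38A versus WT, at -0.31 (SE 0.17, 95% interval -0.64 to 0.02, adjusted p = 0.41). There MCM7 differed by -0.20, MCM5 by -0.14, MCM3 by -0.01, MCM10 by 0.05 and MCM2 and MCM6 by 0.07 each. For S38D versus WT the differences were -0.22 for MCM4, -0.08 for MCM7, -0.05 for MCM5, -0.01 for MCM2, 0.05 for MCM3, 0.11 for MCM6 and 0.17 for MCM10. For S38D versus S38A they were -0.08 for MCM2, 0.04 for MCM6, 0.06 for MCM3, 0.09 for MCM4, 0.10 for MCM5, 0.12 for MCM7 and 0.13 for MCM10. No half-width of a 95% interval by the normal quantile, which is too narrow here, exceeded 0.33 on the log2 scale. The inputs of each MCM mRNA varied little over the 6 libraries, with coefficients of variation from 3.36% in MCM2 to 15.2% in MCM4.

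Across the 12 libraries the members moved together, as a description. MCM3 and MCM7 had the highest correlation of log2 CPM (Pearson r = 0.98), and MCM4 and MCM5 the lowest (0.50). Within the 6 IP libraries MCM3 and MCM7 still had 0.95, while MCM2 and MCM7 had -0.38. These points share the library scaling, the step between IP and input, and the first WT IP library. Among 13097 other genes with a mean of at least 5 CPM, the profiles most like the mean of MCM2 to MCM7 over the 12 libraries were those of ENSG00000108465.10 and ENSG00000006712.10 (r = 0.99 each), which the files do not pair with symbols.

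Other S phase genes were taken from a published set of cell cycle marker pairs, in which MCM4, MCM5 and MCM6 were themselves S phase markers. Of 248 other S phase markers tested, 60 were higher (24.2%) and 51 lower (20.6%) in IP over the 3 lines, where 15.9% of all genes were higher and 15.9% lower. Their median log2 change was 0.05, against 0.51 for the 7 MCM mRNAs and -0.04 for all genes. In S38A 0 passed either way. In S38D 16 were higher (6.45%) and 2 lower (0.806%), against 3.13% and 1.74% of all genes. In WT 29 were higher (11.7%) and 14 lower (5.65%), against 5.77% and 5.48% of all genes.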

How the data were processed

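Polyadenylated RNA was sequenced from 12 libraries in 6 groups of 2. The deposited files hold raw read counts by gene, from 1 table a library, for 57820 Ensembl identifiers and 92 ERCC spike-ins. The submitters' processing notes name the build hg19 and the tools STAR 2.4.2a, DESeq2 and bcl2fastq 2.16.0.10. The sources used here give neither the counter nor its strand handling nor the annotation release. The files do not pair identifiers with symbols, and 0 of 59792 reference genes carried an Ensembl identifier. MCM symbols come from the list that chose the members, and gene lists and cell markers fixed by symbol were not analysed here. Without transcript lengths, levels were not compared between genes.

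Tests of the counts ran in edgeR 4.0.16 under R 4.3.3 (filterByExpr with a minimum count of 10, TMM, quasi-likelihood test, Benjamini-Hochberg over all genes, adjusted p under 0.05). IP comparisons used all 12 libraries (biological coefficient of variation 17.4%) and input comparisons the 6 inputs (15.7%). The SE was the log2 change over the square root of F, and 95% intervals used the normal quantile. With so few libraries these intervals are narrower than the tests imply. For MCM3 in S38A, IP versus input, the interval of 0.0053 to 0.70 left out 0, while the unadjusted p by edgeR was 0.068. Log2 CPM used a prior count of 2. All 7 members are named in every comparison. S phase markers came from scran 1.30.0. The fits were tested on simulated data. Those libraries were drawn independently, without pairing by fraction, and the changes set in them were larger than most MCM changes. Smaller changes and paired libraries were not simulated.

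Same-numbered IP and input libraries came from 1 fraction per the labels, and their deviations correlated (0.64 for S38A, 0.54 for S38D, 0.28 for WT), so the fraction was an alternative block. Other alternatives were RLE, total counts, DESeq2 1.42.0, filters, other sets of libraries, spike-in scaling of inputs and omission of each library. Leaving out a whole WT fraction was added after seeing the data. Replicate libraries differed beyond sampling noise, with 5.39 to 16.0 as chi-square over degrees of freedom. The members, lists and tests were chosen with earlier results of these data known.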

Additional observations from a re-analysis of the deposited data

Results flagged for a closer look

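In the first WT fraction the log2 IP over input was 1.43 for MCM10 and 1.16 for MCM4. Both lay far above the other 5 fractions, of which the nearest was 0.49 for MCM10 and 0.55 for MCM4. That gap, divided by the range of the 6 values, was 0.771 for MCM10 and 0.669 for MCM4. About 1 in 20 groups is singled out this way by chance, 7 mRNAs were examined, and they share that fraction.

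Spike-in RNA, used only to scale the inputs in an alternative, averaged 3.43% of the counts in IP libraries and 0.305% in inputs.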

How the results depend on the processing

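Of 1295 single values recomputed under an alternative, 1158 kept direction and side of the threshold, 49 newly passed, 23 no longer passed and 65 had the opposite sign, of which 0 had been called. Of the recomputed counts of called members, 160 stayed within 1.5 times and 25 did not. The cause was not tested where none is given. Over the 3 lines, 5 called became 2, both higher, with total counts, where 1298 of all 16920 genes were higher and 5251 lower. With 1 library left out, the log2 change of MCM7 ran from 0.74 to 0.92 and that of MCM6 from 0.14 to 0.24. Shares of all genes below count both directions unless a direction is given. In WT, 3 became 1 with total counts, where 484 of all genes were higher and 2444 lower. It became 5 with the replicate block (14% of all genes higher) and 0 in a fit of the 4 WT libraries alone (0%). The count also moved in the block fit that omits the second WT fraction, with MCM7 at 1.34. Leaving out 1 library gave 0 to 4 (0 without either input, 1 without the first IP library). In S38A, 0 became 1 with the block (12.3%) and 6 in the block fit that omits either WT fraction (34.9% of all genes without the first, 34.6% without the second), and stayed 0 with 1 library left out. In S38D, 1 became 2 with DESeq2 (10% of all genes), with the block (20%) and in a fit of the 4 S38D libraries alone (9.83%), and 5 in the block fit that omits either WT fraction (36.9% without the first, 36.6% without the second). Leaving out 1 library moved the number called in S38D, while the log2 change of MCM7 ran from 0.84 to 0.98. In IP over input, the number called moved from 0 for S38A versus WT and S38D versus WT in the block fit that omits the second WT fraction. There MCM10 differed by -1.15 and -1.08, in the same order. With 1 library left out, the number called also moved for S38A versus WT, where MCM10 ran from -1.02 to -0.11. In these block fits the single WT fraction left is assumed to vary like the others. The replicate number did not pair inputs across lines (deviations correlated at -0.066 to 0.217), and the replicate block over it called 0 of 7 in each input comparison.

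The signs that turned were these. With total counts, IP versus input gave -0.00089 for MCM5 and -0.019 for MCM6 over the 3 lines, -0.030 for MCM5 in WT, and -0.13 for each of MCM5 and MCM6 in S38D; IP over input gave 0.026 for MCM6 in S38A versus WT and -0.073 for MCM10 in S38D versus S38A; inputs gave 0.037 for MCM3 in S38A versus WT and 0.018 for MCM2 in S38D versus WT. In IP over input of S38A versus WT, MCM2 was -0.026 with RLE, -0.024 with DESeq2 and -0.0024 in the block fit that omits the second WT fraction. In the one that omits the first WT fraction, MCM10 was 0.060 and MCM6 0.10 in S38A versus WT, and in S38D versus WT MCM10 was 0.13, MCM3 0.10, MCM4 0.17, MCM6 0.058 and MCM7 0.17. With no filter MCM2 was 0.0032 in input S38D versus WT. With spike-in scaling, input S38A versus WT gave -0.39 for MCM2, -0.33 for MCM6 and -0.32 for MCM10, S38D versus WT gave -0.80 for MCM3, -0.68 for MCM6 and -0.59 for MCM10, and S38D versus S38A gave -0.33 for MCM3, -0.34 for MCM4, -0.27 for MCM5, -0.36 for MCM6, -0.26 for MCM7 and -0.27 for MCM10. None passed.

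Leaving out 1 library turned signs of uncalled values. In IP over input, S38A versus WT ran from -0.072 to 0.057 for MCM2 and -0.13 to 0.23 for MCM5. S38D versus WT ran from -0.092 to 0.018 for MCM2, -0.34 to 0.072 for MCM3, -0.59 to 0.065 for MCM4 and -0.39 to 0.086 for MCM7. S38D versus S38A ran from -0.11 to 0.037 for MCM2, -0.062 to 0.47 for MCM4, -0.34 to 0.022 for MCM5, -0.11 to 0.047 for MCM6 and -0.041 to 0.16 for MCM10. In inputs, S38A versus WT ran from -0.11 to 0.073 for MCM3, -0.34 to 0.029 for MCM5, -0.0011 to 0.14 for MCM6 and -0.060 to 0.16 for MCM10. S38D versus WT ran from -0.038 to 0.025 for MCM2 and -0.13 to 0.040 for MCM5, and S38D versus S38A from -0.026 to 0.15 for MCM3, -0.13 to 0.28 for MCM4 and -0.075 to 0.29 for MCM5.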
